A study of Homo sapiens with 4 samples.

Results

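The regions described here are STARR-seq peaks that lay at the ends of protein-coding genes in 3 of the 4 treatments of the study. A peak was a member when its summit lay within 1 kb of either end of a protein-coding gene of RefSeq GRCh38, on chromosomes 1 to 22 and X, in the DMSO, MG132 or SHP1705+MG132 peak list. There were 6423 such peaks among 174838 peaks of these 3 lists: 1895 of 47822 in DMSO, 2493 of 69842 with MG132 and 2035 of 57174 with both drugs. They were split by whether the summit was centred, meaning at most 2 bp from the middle of its peak, or off-centre, and by how many of the 3 lists held the same region. Peaks that shared at least 1 bp were merged into 1 region. The distance of 1 kb chose the members, with 278 summits 950 to 1000 bp from a gene end and 252 just outside it, at 1000 to 1050 bp. For centring, 33 member summits lay 2 bp from the middle of the peak and 32 lay 2.5 bp from it.

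All libraries came from MDA-MB-231 cells, an established triple-negative breast cancer line with mesenchymal traits, transfected with a plasmid library made from that line's own fragmented genomic DNA. Drugs were added before transfection, and polyA RNA was taken 8 h after it. The groups were DMSO, the solvent control; MG132 at 100 nM, an inhibitor of the proteasome; SHP1705 at 10 µM, a stabilizer of the clock repressor cryptochrome (CRY); and SHP1705 at 10 µM with MG132 at 100 nM. Each treatment had 1 library and 1 peak list, so no spread between replicates exists, no test was made and no p-value is given. Every difference below compares libraries. DMSO, MG132 and the combination held 27289266 to 29717604 fragments. SHP1705 stood apart, with 118324303 fragments and 11073 gene-end peaks among 85840 (12.9%), and is used only as a further readout of the same regions. Peak height, fold, p and q values are the authors' own. Heights are given as the pileup, the number of fragments over the summit, or as pileup in fragments per 1000000 fragments of the library (FPM). Intervals are 95% intervals, Wilson for shares and exact for ratios of pileups. They cover counting error only, since duplicate fragments were kept and are not independent molecules.

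In STARR-seq a genomic fragment sits inside the transcribed part of a reporter, so a fragment with enhancer activity drives copies of itself into RNA. The start of a gene carries its promoter, where transcription begins, and promoters often score in such assays. The 3′ end carries the last exon and the polyadenylation signal, which the cell's own mRNA ends with. A peak here reports fragments that aligned to a gene end, and its relation to that gene's expression was not tested. Regions are named for the gene whose end was nearest, and some summits lay outside that gene.

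Only 2 promoter windows of RefSeq (GRCh38.p14; 250 bases before to 50 after a gene start, 1 window for each of 15812 protein-coding genes) held an off-centre summit in a region of all 3 lists. They belonged to LOC124909485, an uncharacterised gene, and TAF11L5, a member of a multicopy family related to the general transcription factor subunit TAF11. Single-list off-centre summits fell in 139 windows and centred summits in 110. The sequences show the promoter letters beside or under such summits. HSPB1, a small heat shock protein, is shown because it was the 1 gene of the gene lists below whose region in all 3 lists covered its start. METTL18 (a histidine methyltransferase; DMSO alone, pileup 712), KCNJ1 (a renal potassium channel; MG132 alone, 464) and LHB (the beta subunit of luteinizing hormone; combination alone, 414) held tall single-list summits, and were chosen with LOC124909485 and TAF11L5 after their values were seen. Each run is the 250 bases before the gene start, 5′ to 3′ on the gene's strand, at chr7:76302423-76302672 (+) for HSPB1, chr3:58171527-58171776 (+) for LOC124909485, chr5:17524985-17525234 (+) for TAF11L5, chr1:169794908-169795157 (-) for METTL18, chr11:128867297-128867546 (-) for KCNJ1 and chr19:49017092-49017341 (-) for LHB. Capitals mark matches, on either strand, to the motifs named in the next paragraph.
HSPB1: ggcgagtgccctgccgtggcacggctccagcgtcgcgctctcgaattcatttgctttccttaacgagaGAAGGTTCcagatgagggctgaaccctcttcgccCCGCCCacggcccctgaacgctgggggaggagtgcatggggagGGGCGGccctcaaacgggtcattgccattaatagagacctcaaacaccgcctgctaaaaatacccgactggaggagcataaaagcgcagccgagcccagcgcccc
LOC124909485: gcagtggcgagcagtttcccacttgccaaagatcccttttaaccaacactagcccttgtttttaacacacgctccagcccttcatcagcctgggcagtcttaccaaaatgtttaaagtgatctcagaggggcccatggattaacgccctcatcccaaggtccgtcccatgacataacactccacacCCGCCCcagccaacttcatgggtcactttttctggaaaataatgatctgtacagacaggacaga
TAF11L5: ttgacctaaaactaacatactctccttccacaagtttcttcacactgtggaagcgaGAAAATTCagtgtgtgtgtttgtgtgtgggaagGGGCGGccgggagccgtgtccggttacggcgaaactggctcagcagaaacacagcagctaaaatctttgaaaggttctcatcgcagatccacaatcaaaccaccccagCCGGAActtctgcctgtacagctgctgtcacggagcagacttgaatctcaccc
METTL18: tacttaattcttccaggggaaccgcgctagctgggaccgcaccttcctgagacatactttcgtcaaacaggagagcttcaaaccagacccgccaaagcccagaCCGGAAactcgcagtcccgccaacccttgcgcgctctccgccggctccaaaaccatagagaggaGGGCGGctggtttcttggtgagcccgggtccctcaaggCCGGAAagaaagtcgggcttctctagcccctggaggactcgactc
KCNJ1: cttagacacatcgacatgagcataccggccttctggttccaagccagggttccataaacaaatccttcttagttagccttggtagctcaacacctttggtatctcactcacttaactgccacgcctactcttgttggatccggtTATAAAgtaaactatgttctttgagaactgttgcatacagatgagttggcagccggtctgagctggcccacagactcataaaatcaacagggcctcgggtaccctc
LHB: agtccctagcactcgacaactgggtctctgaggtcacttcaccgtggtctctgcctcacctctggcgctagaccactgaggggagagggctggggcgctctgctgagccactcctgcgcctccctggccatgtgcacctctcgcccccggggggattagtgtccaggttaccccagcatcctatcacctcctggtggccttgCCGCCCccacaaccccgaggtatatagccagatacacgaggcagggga

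The 11 motifs searched on both strands were CCAAT (the CCAAT box), GGGCGG (the GC box), TATAAA (the TATA box), CACGTG (the E-box bound by clock factors), TGANTCA (the AP-1 site), TGACGTCA (the cAMP response element), CCGGAA (the core of ETS factor sites), AAGATGG (the YY1 site), GAANNTTC (paired units of the heat shock element), TGACNNNGC (the antioxidant response element) and GCATGCGC (part of the NRF1 site). The cAMP and antioxidant response elements begin with the same letters. GGGCGG was in 57.4% of all promoter windows, in 54.0% (45.7 to 62.0) of those with a single-list off-centre summit and in 42.7% (33.9 to 52.1) of those with a centred one. CCGGAA was in 22.5% of all windows, in 34.5% (27.1 to 42.8) with a single-list off-centre summit and in 21.8% (15.1 to 30.4) with a centred one. TATAAA was in 9.92%, 8.63% (5.01 to 14.5) and 14.5% (9.16 to 22.3) of these windows. The median number of CpG pairs per window was 22 over all windows, 22 where a single-list off-centre summit lay and 10 where a centred one lay. A match describes letters in a window and shows no binding. Of the windows printed, HSPB1 held the GC box and the heat shock unit, TAF11L5 these with the ETS core, METTL18 the GC box and the ETS core, LOC124909485 and LHB the GC box, and KCNJ1 the TATA box. The peaks covered all 250 printed bases at LOC124909485 and KCNJ1, 139 at LHB, 70 at TAF11L5, 67 at METTL18 and 16 at HSPB1. The matches at HSPB1, METTL18 and LHB and 2 of 3 at TAF11L5 lay outside the peaks.

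Gene-end summits were off-centre in 74.1% of cases in DMSO (72.1 to 76.0), 70.4% with MG132 (68.6 to 72.2) and 70.3% with both drugs (68.2 to 72.2), against a share of 47.3% over all peaks of the 3 lists. By number of lists, off-centre members counted 2170 in 1 list, 712 in 2 and 1708 in all 3. Centred members counted 1659, 137 and 37. Off-centre members in all 3 lists were low and broad, with a median FPM pileup of 1.62, a median fold over local background of 7.11 and a median width of 712.5 bp. Centred members in 1 list were tall and narrow, at 6.41 FPM, a fold of 22.7 and 415 bp. Single-list off-centre members resembled the centred ones in height (5.90 FPM) and width (431 bp). The 37 centred members in all 3 lists were as low, at a median of 1.69 FPM, and 469 bp wide. Off-centre members in 2 lists were the lowest, at 1.14 FPM, against 5.82 FPM for centred members in 2 lists.

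The classes also differed in where they lay. The side of the gene and the kind of end were not used to choose members. Strand was known for 15813 of 19974 protein-coding genes, and 1326 of the 6423 members had no strand for their nearest gene. Among the off-centre members with a strand, a 3′ end was the nearest end for 57.5% (55.1 to 59.8) in 1 list, 81.6% (78.1 to 84.6) in 2 lists and 91.9% (90.3 to 93.2) in all 3. The last share was 1275 peaks at 3′ ends against 113 at starts. A shared region gives a peak in each list, so these intervals, which count peaks, are too narrow for members in 2 or 3 lists. By region, 479 in all 3 lists were nearest to a 3′ end and 40 to a start. Centred members in 1 list were nearest to a start in 58.1% of cases (55.4 to 60.7) and to a 3′ end in 41.9%. Of the 1275 off-centre peaks at 3′ ends in all 3 lists, 1208 (94.7%, 93.4 to 95.8) had their summit inside the gene. The median summit lay 469 bp inside, with quartiles of 354 and 648 bp. Centred single-list summits at 3′ ends lay inside the gene in 38.9% of cases (34.9 to 43.0). At starts, 87 of 113 off-centre 3-list summits (77.0%) lay inside the gene, at a median of 216 bp.

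**Figure D1:**
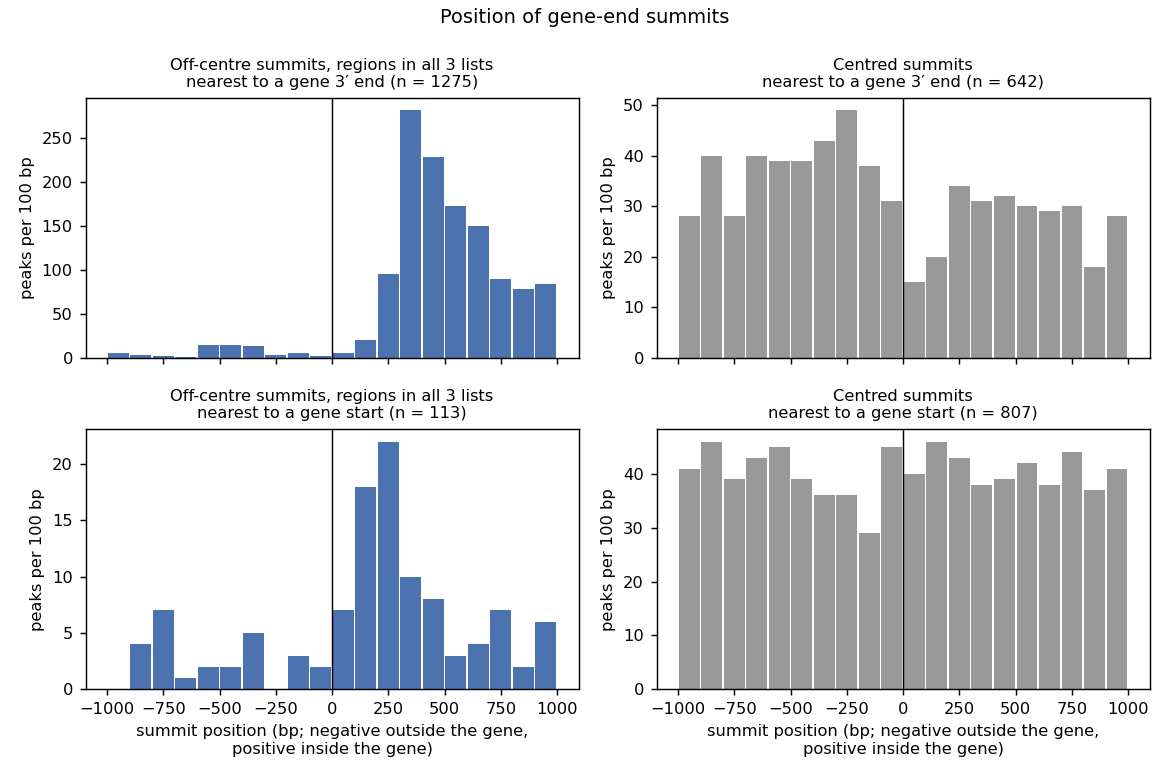
Number of summits per 100 bp (vertical axis) by signed distance from the nearest gene end (horizontal axis, bp, positive inside the gene), for off-centre members in all 3 lists (blue) and all centred members (grey), at 3′ ends (top) and starts (bottom). The 1275 blue summits at 3′ ends pile up inside the gene, with 282 of them 300 to 400 bp from the end, while the 642 grey ones lie on both sides.

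Merged into regions, the members gave 4919 gene-end regions, of which 637 were in all 3 lists, 453 in 2 and 3829 in 1. The share in all 3 lists was 12.95% (12.04 to 13.92), against 3.37% (3.28 to 3.47) of the 148990 other regions and 3.68% of all regions. Single-list regions numbered 1021 in DMSO, 1591 with MG132 and 1217 with both drugs. For pairs of lists there were 193 regions in DMSO and MG132, 114 in DMSO and the combination, and 146 in MG132 and the combination. The difference was not seen in lists of equal length. With the MG132 and combination lists reduced by q value to the length of the DMSO list, 83 gene-end regions (2.03%) were in all 3 lists, against 2.09% of other regions. This step shortened the lists and removed their weakest peaks at once, and these cannot be told apart. The share also differed by kind of end: 21.0% of regions at 3′ ends (19.4 to 22.8) and 2.80% at starts (2.10 to 3.72) were in all 3 lists.

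**Figure D2:**
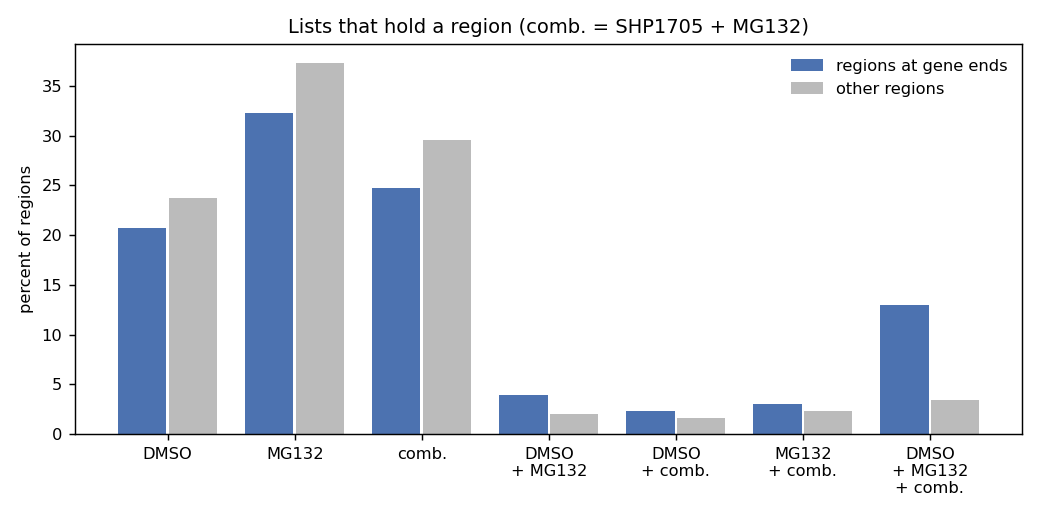
Percent of regions (vertical axis) held by each combination of the 3 lists (horizontal axis), for the 4919 gene-end regions (blue) and the 148990 other regions (grey). Gene-end regions stand above the others in every combination of 2 or 3 lists, with 12.95% against 3.37% in all 3, and below them in each single list.

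The 637 regions of all 3 lists named 627 genes, and in 602 of them the tallest peak was off-centre in every list. Strand was unknown for 118. An annotated pseudogene overlapped 12. Per 100 protein-coding genes, their number ran from 2.06 on chromosome 3 to 4.49 on chromosome 12. None had its tallest peak centred in every list.

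At ACTB, which encodes cytoplasmic beta-actin (chromosome 7, 5527177 to 5528727, hg38), the pileup was 1803 in DMSO, 1816 with MG132 and 1523 with both drugs, or 60.7, 66.5 and 53.8 FPM. The combination over MG132 ratio there was 0.808 (0.754 to 0.865), and SHP1705 held 1576 FPM. GAPDH, the glycolytic glyceraldehyde-3-phosphate dehydrogenase (chromosome 12, 6537579 to 6538325), had 21.3 FPM in DMSO, 22.2 with MG132 and 18.3 with both drugs, with the summit 565 bp inside its 3′ end. The collagen VI chain gene COL6A2 had 16.2, 19.5 and 13.9 FPM in the same order, and ACTG1, for gamma-actin, 14.7, 17.5 and 13.8. At CALR, for the ER chaperone calreticulin, the values were 14.8, 14.6 and 12.6 FPM. In each of these 5 regions the combination was the lowest of the 3 lists. It was also lower over the 637 gene-end regions of all 3 lists, with median ratios of 0.889 over DMSO and 0.822 over MG132.

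TMSB4X, for the actin-binding peptide thymosin beta 4, reached 22.7 FPM in MG132 against 15.4 in DMSO and 13.0 in the combination. UBB, a polyubiquitin gene whose product feeds the proteasome pathway (chromosome 17, 16381871 to 16382808), stood at 44.9 FPM with MG132, 12.9 in DMSO and 11.0 with both drugs. The MG132 value was 3.48 times that of DMSO (3.10 to 3.91), and the combination 0.852 times (0.732 to 0.992). In UBB the MG132 summit lay 203 bp from the nearer of the other 2 summits.

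Also among the 15 tallest by their lowest list were REG4, a secreted lectin of the gut, with 13.4, 14.6 and 11.1 FPM in DMSO, MG132 and the combination, and LYZ, for lysozyme, with 11.5, 12.8 and 10.5. COL6A1 (another collagen VI chain), the histone variant gene H3-5 and FN1, for the matrix protein fibronectin, lay between 9.07 and 12.1 FPM in the 3 lists. LOC124902048 and LOC101929627, neighbouring uncharacterised genes on chromosome 8 with peaks of equal length and position, had 9.46 and 9.25 FPM in DMSO, 28.5 and 29.4 in MG132, and 10.2 and 10.3 in the combination. Reads can be shared between such near-identical copies, so these 2 regions are not independent.

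**Figure D3:**
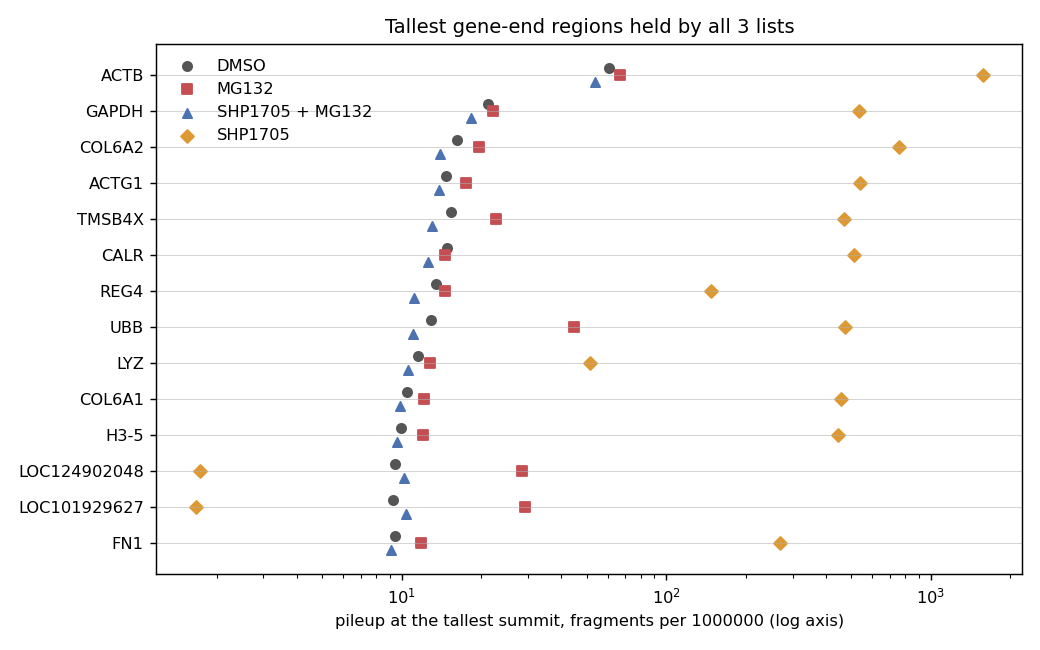
Pileup in FPM (horizontal log axis) of the named gene-end regions among the 15 in all 3 lists whose lowest list was highest, in DMSO (circles), MG132 (squares), the combination (triangles) and SHP1705 (diamonds). DMSO, MG132 and the combination lie close together except at UBB and the 2 LOC genes, where MG132 is 3.01 to 3.48 times DMSO, and SHP1705 lies far to the right except at LYZ, REG4 and the 2 LOC genes.

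Heights could be compared between treatments only where all 3 lists held a peak, since a region that is missing from a list has no pileup there. The MG132 and combination ratios over DMSO share the DMSO library. Over the 637 gene-end regions the MG132 over DMSO ratio of FPM pileups had a median of 1.09 (quartiles 0.928 and 1.25), a shift of 0.12 on the log2 scale. In this comparison 58 regions (9.11%) were at least 1.5-fold higher and 47 (7.38%) at least 1.5-fold lower, against 22.5% and 19.6% of all 5664 regions held by the 3 lists. The combination over DMSO ratio had a median of 0.889 (0.775 and 1.05), a log2 shift of -0.17. There, 42 regions (6.59%) were higher and 77 (12.1%) lower, against 19.6% and 23.1% of all regions.

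The combination over MG132 ratio had a median of 0.822 (0.712 and 0.963), a log2 shift of -0.28, with 44 regions (6.91%) higher and 119 (18.7%) lower, against 16.7% and 24.6%. Relative to the median ratio of all 5664 regions, the numbers higher and lower were 52 and 59 for MG132 over DMSO, 49 and 59 for the combination over DMSO, and 49 and 73 for the combination over MG132, so the tilt toward lower values was smaller under that scaling, and in MG132 over DMSO the larger count changed sides. All 3 lists lay within 1.5-fold of each other in 411 of 637 gene-end regions (64.5%, 60.7 to 68.1) and in 1646 of 5027 other regions (32.7%, 31.5 to 34.1). The gene-end regions were the lower ones, with a median FPM pileup in DMSO of 1.62 against 9.32 in the others, and the part of height in the narrower ratios was not tested.

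**Figure D4:**
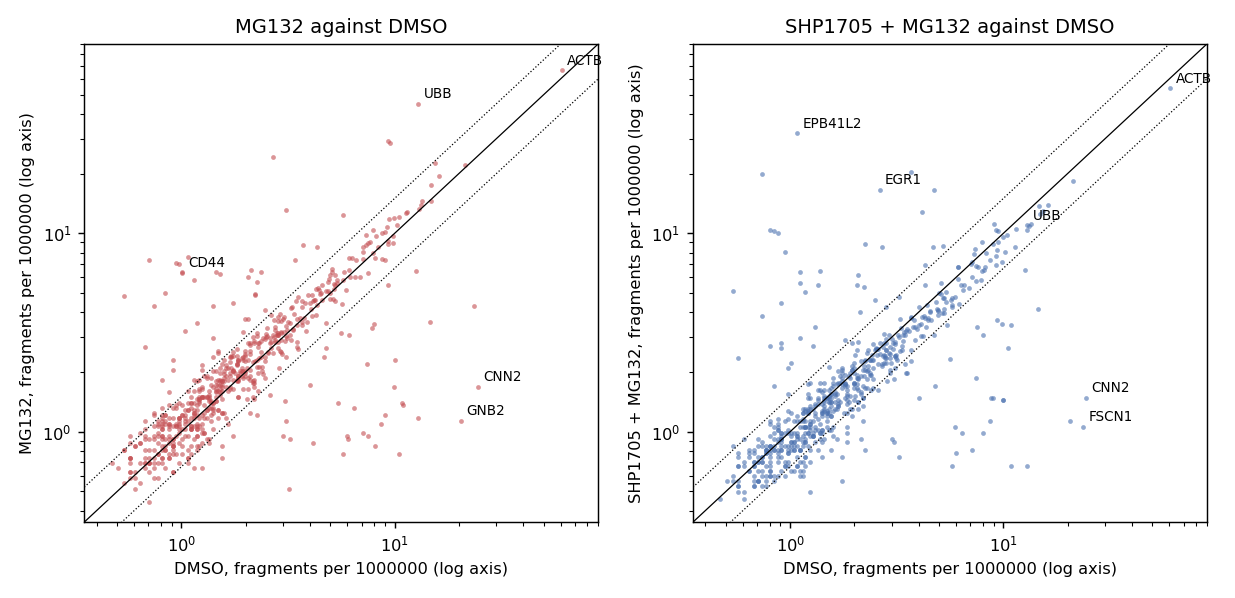
Pileup in FPM of the 637 gene-end regions in all 3 lists, for MG132 (left) and the combination (right) on the vertical log axis against DMSO on the horizontal log axis. Each point is 1 region, the solid line marks equal values and the dotted lines 1.5-fold. Most points follow the line, and single regions such as UBB, GNB2, CNN2, EPB41L2 and FSCN1 leave it far beyond the dotted lines.

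The regions that departed most from equality in MG132 were mostly tall in that library alone. TNPO3, a nuclear import receptor, had pileups of 16 in DMSO, 132 with MG132 and 145 with both drugs, so that both MG132-treated libraries were high. Next came TNFAIP1 (28, 193 and 19), FLOT2, a lipid raft protein (29, 191 and 59), and MACROH2A1, a histone variant (32, 208 and 32). The tallest TNFAIP1 summit lay outside the gene, beyond its 3′ end. CD44, the hyaluronan receptor typical of mesenchymal breast cells, had 30 in DMSO, 174 with MG132 and 27 with both drugs, a ratio of 6.32 (4.27 to 9.64) for MG132 over DMSO. Apart from TNPO3 and FLOT2, the MG132 height at these genes was not shared by the combination, and the cause was not tested.

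At the low end were regions tall in DMSO alone. GNB2, a G protein beta subunit (chromosome 7, 100678162 to 100679000), had a pileup of 608 in DMSO, 31 with MG132 and 32 with both drugs. CNN2, the actin-binding calponin 2, had 727, 46 and 42, and NHERF1, a membrane scaffold protein, had 384, 32 and 19. FSCN1, for the actin-bundling protein fascin, had 702 in DMSO, 118 with MG132 and 30 with both drugs, the lowest combination over DMSO ratio at 0.0448 (0.0300 to 0.0646). DYNC1LI2, a dynein light intermediate chain, had 313, 21 and 75, ALDH1A1, a retinaldehyde dehydrogenase, 239, 23 and 28, and FBXW5, a ubiquitin ligase adaptor, 324, 37 and 19. DMSO was the highest of the 3 lists in all of these regions.

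The combination had its own tall regions. EPB41L2, a membrane skeleton protein of the band 4.1 family (chromosome 6, 130839519 to 130840599), had a pileup of 32 in DMSO, 31 with MG132 and 908 with both drugs, 29.8 times DMSO (20.9 to 43.8). TSPYL1, a nucleosome assembly family protein, had 24, 22 and 295, TREH, for the enzyme trehalase, 25, 22 and 292, and GOLPH3, a Golgi phosphoprotein, 26, 20 and 284. The tallest TREH summit lay outside the gene, beyond its 3′ end. PDCD6, a calcium-binding protein, had 123, 24 and 364, and EGR1, an immediate early transcription factor, 78, 72 and 470. SHP1705 alone held 40.6 FPM at EPB41L2, beside 32.1 in the combination, 1.14 in MG132 and 1.08 in DMSO. That SHP1705 height was an ordinary one. Its median over the 627 gene-end regions of all 3 lists with a SHP1705 peak was 51.4 FPM (quartiles 31.0 and 86.4). At the DMSO-tall regions named above, SHP1705 ran from 17.9 FPM at ALDH1A1 to 74.6 at FSCN1.

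Over all 637 regions, 55 had 1 list at least 3 times as high as the next: 21 in DMSO, 15 with MG132 and 19 with both drugs. This count was not made over the 5027 regions of all 3 lists away from gene ends, so it shows no trait of gene ends. Away from gene ends the MG132 over DMSO ratio was wider, at 0.319 to 3.45 from the 5th to the 95th percentile. At gene ends it was 0.508 to 2.18. In these 55 the tallest summit lay a median of 141 bp from the nearer of the other summits, and over 100 bp away in 35 (63.6%), while the other summits lay a median of 118 bp from each other. The tall summit was over 100 bp away in 14 of 21 regions for DMSO, 16 of 19 for the combination and 5 of 15 for MG132. In the other 582 regions these medians were 31 bp and 59 bp, and 138 (23.7%) had the tallest summit over 100 bp away. Pileup of duplicate fragments could not be counted from the peak lists, and its part was not tested.

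Gene-end regions of a single list also held tall members. The combination alone held PLA2G4A, for cytosolic phospholipase A2, with a centred summit of 2009 fragments beyond its 3′ end, and ESYT2, an ER tethering protein, with an off-centre one of 1595. In DMSO alone the tallest were LOC107987545, an uncharacterised gene, at 1221 (off-centre, overlapping a pseudogene), and CALY, a neuronal vesicle protein, at 970 (centred). The ESYT2 and CALY summits also lay beyond the 3′ ends of their genes. In MG132 alone they were ZNF57, a zinc finger gene, at 1034 (off-centre) and UTP14A, a ribosome biogenesis factor, at 697 (centred). SHP1705 held no peak in any of these regions except ZNF57, at 0.744 FPM.

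Single-list off-centre members nonetheless overlapped a SHP1705 peak in 39.5% of cases (37.5 to 41.6), against 6.21% (5.15 to 7.47) of the centred ones. The share rose to 80.6% (77.6 to 83.4) for off-centre members in 2 lists and to 98.4% (97.7 to 98.9) in all 3. Among other peaks that were off-centre it was 10.5% in 1 list, 33.0% in 2 lists and 77.7% (77.0 to 78.3) in all 3. As above, the intervals for 2 or 3 lists count a shared region once per list and are too narrow. Other centred peaks in 1 list had 3.03%, so off-centre peaks had the higher share there too. Of the 637 regions, 627 had a SHP1705 peak, and its FPM pileup had a median of 51.4. Gene-end peaks of the SHP1705 list under 1 FPM were in all 3 other lists in 1 of 2626 cases, those of 10 to 30 FPM in 109 of 1559 (6.99%), those of 30 to 100 in 302 of 530 (57.0%), and those of at least 100 in 115 of 130 (88.5%, 81.8 to 92.9). Across the 627 regions, DMSO and SHP1705 heights on the log2 scale had a Spearman rho of 0.718, MG132 and SHP1705 0.759, and the combination and SHP1705 0.687. In the 3925 other regions these were 0.080, 0.076 and 0.054. These are descriptions across regions that share 1 library per axis. The combination lay at 0.889 times DMSO by the median of the 637 regions.

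The gene groups of the 3-list regions were described with 17 lists. Over all 19974 protein-coding genes, 3.58% had an off-centre gene-end peak in a region of all 3 lists and 8.58% a centred one in 1 list. Of the cytoskeleton genes 12 of 22 had the former, among them ACTB, ACTG1, TMSB4X and CFL1, for the actin-severing protein cofilin. Glycolysis genes counted 6 of 12, including GAPDH, PKM (pyruvate kinase), LDHA (lactate dehydrogenase) and PGAM1 (phosphoglycerate mutase). Mesenchymal and basal genes counted 9 of 20, with FN1, TGFBI, VIM and the membrane protease MMP14 highest. Collagens counted 10 of 44, led by COL6A2, COL6A1, COL1A2 and COL4A2. These lists were drawn with earlier results of the same libraries in view, so their counts are descriptions.

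Luminal genes counted 7 of 20: the simple epithelial keratins KRT8, KRT18 and KRT19, the tight junction claudins CLDN3 and CLDN4, CDH1 and XBP1. KRT8 had 13.2 FPM in DMSO, 13.9 with MG132 and 10.9 with both drugs. Its summit was centred in MG132 and off-centre in the other lists. KRT8 and KRT18 overlap in the annotation, so the KRT18 region lies at an end of both. AP-1 and immediate early genes counted 7 of 22, among them CCN1 and CCN2, secreted matricellular proteins, EGR1 and JUND. ER chaperones and ATF4 targets counted 6 of 20, with CALR, ATF4 and the protein disulfide isomerases PDIA6 and PDIA4 named here. The heat shock list counted 5 of 20: HSP90AA1 and HSP90AB1, the HSP90 chaperones, HSPB1, HSPB8 and HSPD1. HSPD1 encodes the mitochondrial chaperonin, and the HSPB8 summit lay outside the gene in a region that overlapped a pseudogene. At HSP90AA1 the values were 7.37 FPM in DMSO, 8.72 with MG132 and 8.36 with both drugs.

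HSPB1, whose promoter is printed above, had 2.89 FPM in DMSO, 3.92 with MG132 and 3.07 with both drugs, with its summit 195 bp inside the start. Annexins and S100 genes counted 3 of 32 (ANXA5, S100A14 and S100A16) and keratins 3 of 55. Cytosolic ribosomal protein genes counted 4 of 84, RPL29, RPL13A, RPL8 and RPL35A, and proteasome subunit genes 2 of 48, PSMD7 and PSME3. At PSMD7, a subunit of the proteasome lid, the values were 1.31 FPM in DMSO, 0.916 with MG132 and 1.20 with both drugs. The clock list had 1 of 19, the repressor BHLHE40, with 1.38, 1.14 and 0.988 FPM. ZNF genes counted 3 of 509. Replication-dependent histones (0 of 69), olfactory receptors (0 of 392) and blood and liver genes (0 of 18) had none.

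Centred single-list peaks were distributed otherwise. They were at 48 of 392 olfactory receptors, 44 of 509 ZNF genes, 6 of 84 ribosomal protein genes, 6 of 55 keratins, 6 of 32 annexins and S100 genes, 5 of 48 proteasome subunits, 3 of 22 cytoskeleton genes and 2 of 69 histones. Collagens, heat shock and mesenchymal genes had 2 each, and the AP-1, ER, luminal, clock and blood and liver lists 1 each, with 0 of 12 for glycolysis. Olfactory receptors, which are silent outside the nose in most cells, had 12.2% against 8.58% over all genes. Off-centre peaks in 1 list were at 11.45% of all protein-coding genes. By gene list their share ran from 3.64% of keratins to 27.4% of cytosolic ribosomal protein genes (23 of 84). Proteasome subunit genes had 20.8% (10 of 48) and olfactory receptors 6.38% (25 of 392).

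**Figure D5:**
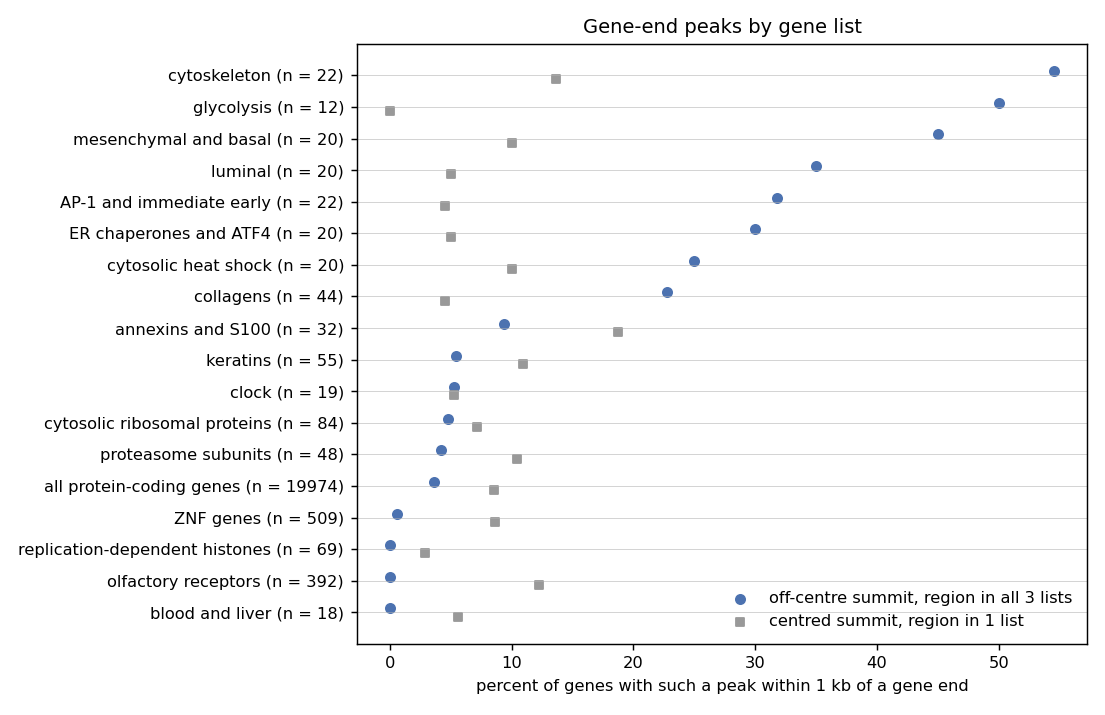
Percent of the genes of each list (horizontal axis; n is the number of genes) with an off-centre gene-end peak in a region of all 3 lists (blue circles) or a centred one in 1 list (grey squares). The blue share runs from 0 in olfactory receptors, histones and blood and liver genes to 12 of 22 in the cytoskeleton list, with 3.58% over all protein-coding genes, and the grey share stays nearer to its 8.58%.

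The labelled line was set against marker genes. All 5 mesenchymal markers had gene-end peaks in all 3 lists. VIM, for the intermediate filament vimentin, had 5.08 FPM in DMSO, 6.63 with MG132 and 4.94 with both drugs, TGFBI, a secreted matrix protein, 9.19, 10.7 and 7.70, and CAV1, for caveolin 1, 1.55, 1.80 and 1.66. ESR1, GATA3 and FOXA1, luminal transcription factors, had none in the 3 lists, and PGR, the progesterone receptor, had one in MG132 alone. Other genes of the luminal list did have peaks in all 3 lists. CDH1, for epithelial cadherin, had 2.05, 2.31 and 2.58 FPM in DMSO, MG132 and the combination, KRT19 had 11.3, 12.7 and 8.58, and KRT18 had 5.25, 4.58 and 3.95. With KRT8, given above and higher than VIM in each list, CLDN3, CLDN4 and XBP1, the luminal list had 7 of 20 members in all 3 lists beside 9 of 20 mesenchymal and basal ones, and the part of these epithelial genes in the other results was not tested. HBB and ALB, markers of red cells and liver, had none, and PTPRC, of white cells, had one in DMSO alone, at 12.6 FPM. Genes of the gut were not among these markers. REG4 had 13.4, 14.6 and 11.1 FPM in DMSO, MG132 and the combination, and CEACAM5, of gut epithelium, 9.86, 9.64 and 7.17. Both were higher than VIM in each list. OLFM4, PIGR, CEACAM6 and MUC13, also known from gut epithelium, were in all 3 lists too, lower than VIM in each. Their DMSO values were 4.2, 4.1, 3.7 and 3.5 FPM. The part of such genes in the other results was not tested.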

How the data were processed

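Enhancer activity was measured by STARR-seq in 4 libraries of MDA-MB-231, 1 per treatment. The submitters' processing notes name Trimmomatic, FastQC, Bowtie2 and MACS2 with the hg38 build, without versions for the read tools. MACS 2.2.6 was run on every library separately (q limit 0.01, duplicates kept, no control, local background over 10000 bp), per the file headers. The pileup signal of a peak, its fold over local background (a ratio) and its −log10 p and −log10 q were deposited by the authors, with no scaling between libraries. The minimum peak width was the fragment size the caller used, 346 bp in DMSO, 354 bp in MG132, 355 bp in the combination and 299 bp in SHP1705.

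From these lists, summits on chromosomes 1 to 22 and X were measured against gene ends of the RefSeq GRCh38.p14 table, and strand was taken from the RefSeq promoter table. Exons were not analysed here. Peaks sharing 1 bp were merged over DMSO, MG132 and the combination, each list's tallest peak stood for a region, and pileups were divided by fragments in units of 1000000. Regions were compared as ratios with a fold of 1.5, with no test. The assignment of peaks to ends, classes and lists was tested on simulated peaks. Python 3.11.15, pandas 2.3.3, numpy 2.4.6, scipy 1.17.1 and matplotlib 3.10.9 were used.

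The members and gene lists were chosen with earlier results of these data known. Named genes were the 15 regions off-centre in all 3 lists with the highest lowest-list pileup, the 5 highest and 5 lowest of each ratio, the 3 tallest single-list peaks of each list and summit class, and up to 4 genes of each gene list; others are named as chosen after their values were seen. Some genes that this rule names are not reported here. Alternatives were other distances (500 bp and 2 kb), a −log10 q of at least 5, equal list lengths, other limits on centring and overlap, peaks on non-coding genes left out, starts or 3′ ends alone, median-ratio scaling, a fold of 2, summed pileup and off-centre regions alone.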

Additional observations from a re-analysis of the deposited data

Results flagged for a closer look

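A signal in the library outside the 3 lists compared drew attention. At the 627 gene-end regions of all 3 lists that also had a SHP1705 peak, the SHP1705 over DMSO ratio of pileups in fragments per 1000000 (FPM) had a median of 31.75 (quartiles 24.7 and 41.2). At the 3925 other regions of all 3 lists with a SHP1705 peak the median was 0.127. Each treatment had 1 library, and the difference was not tested.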

How the results depend on the processing

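No paired analysis was possible because each treatment had 1 library, and with 1 library no replicate could be left out. All alternatives were planned, and of 75 values 30 stayed within the interval of the main value (within 1.5 times for a count) and 45 moved. Some directions changed: at equal list length the share in all 3 lists was no longer higher at gene ends, and with median-ratio scaling MG132 over DMSO had 52 regions higher and 59 lower, against 58 and 47. The main values are those of the report, with 71.5% of gene-end peaks and 46.3% of other peaks off-centre. In what follows, shares of peaks at gene ends are for DMSO, MG132 and the combination in that order. Within 500 bp they were 2.13%, 1.90% and 1.84%, off-centre shares were 72.7% at gene ends and 46.8% elsewhere, and 410 gene-end regions (15.3%, against 3.47% of others) were in all 3 lists. Within 2 kb they were 6.61%, 6.16% and 6.05%, with 65.8% and 46.0% off-centre and 8.76% of gene-end regions in all 3 lists. At equal list length the MG132 and combination shares were 2.58% and 2.78%, off-centre shares 64.7% and 43.1%, and 83 gene-end regions (2.03%, against 2.09% of others) were in all 3 lists. Starts alone gave 1.01%, 0.982% and 1.01%, 53.9% off-centre, and 45 regions (2.80%) in all 3 lists. The 3′ ends alone gave 2.06%, 1.88% and 1.84%, 80.8% off-centre and 21.0% in all 3 lists. With off-centre set at over 10 bp the shares were 67.4% at gene ends and 42.7% elsewhere, and at over 10% of the width 51.7% and 33.4%. Without peaks on non-coding genes, MG132 and the combination had 3.74% and 3.76% of peaks at gene ends, 47.9% of other peaks were off-centre and 3.55% of other regions were in all 3 lists. With 50% of the shorter peak shared, 3.15% of other regions were in all 3 lists, and at a −log10 q of at least 5, 46.1% of other peaks were off-centre. Past 2-fold there were 66 gene-end regions for MG132 over DMSO, 69 for the combination over DMSO and 74 for the combination over MG132. Limits of distance, threshold and class follow from their construction, and the cause of the other shifts was not tested. The lowest pileups that were called were 13 fragments in DMSO and 12 in each of MG132 and the combination, so lower gene-end signals were not detectable at this depth.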

Other observations

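Some gene-end regions of all 3 lists had a low SHP1705 readout or none. Beside the median of 31.75, 7 regions had a lower pileup in FPM in SHP1705 than in DMSO: LOC124902048, LOC101929627 and LOC101929601, uncharacterised neighbours, TAF11L5 and TAF11L9 of the multicopy TAF11-like family, C2orf42 and DNMT3B, a DNA methyltransferase. TAF11L5 had 2.69 FPM in DMSO, 24.4 in MG132, 8.54 in the combination and 2.16 in SHP1705. Another 10 regions had no SHP1705 peak: MRFAP1L2, TLCD4, RPL35A, MRTO4, RCVRN, TAF11L6, POU5F1B, CLDN6, PRR20A and PRR20B. PRR20A and PRR20B, near-identical copies, had 3.10 and 3.20 FPM in DMSO and 1.14 and 0.513 in MG132. Reads can be shared between copies of these families, so their values are uncertain. These regions and those of the next paragraph were chosen after their values were seen.

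Single gene-end regions also lay well under the usual multiple of SHP1705 over the median of the other 3 lists, which was 32.3 by the median of 627 regions (quartiles 26.2 and 40.9). After the 7 above, the next lowest were NPIPB5, at 1.09, and NPIPB12, both of a multicopy family, then TNPO3 at 2.44, MEPCE, an RNA-capping methyltransferase, at 2.57, KLK7, a kallikrein protease, at 3.04, CLDN2, a claudin of leaky epithelia, at 3.46, KLK6, another kallikrein, at 3.62, PDCD6 at 4.19, LYZ, for lysozyme, at 4.49, PPM1G at 5.19 and ATP6AP1 at 7.56. CEACAM5, a glycoprotein of gut epithelium, was not among these low regions. It had 9.86 FPM in DMSO, 9.64 in MG132, 7.17 in the combination and 282 in SHP1705.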
